A study of Mus musculus with 57 samples.

Results

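Colon tumors that arose in mice without the insulin receptor in the intestinal epithelium were compared with the colon of mice of the same genotype and treatment. The comparison used 19 of the 57 arrays of the series, 9 of tumors and 10 of colon, chosen by the genotype and condition in their titles, and 22180 genes. The mice were female C57BL/6, 18 to 24 weeks old, of the genotype villin-CRE-INSR-/-, in which a Cre recombinase driven by the villin promoter inactivates Insr in intestinal epithelial cells (called knockout here). Insr therefore stays intact in muscle, stroma and immune cells of the same samples. Both groups had been given AOM, a carcinogen, at 7.4 mg/kg by injection and 3% DSS, which injures the colon epithelium, for 7 days in week 2, and were killed in week 5. The labels call the samples biological replicates of distal colon. Whether 1 mouse gave both a tumor and a colon sample is not stated, nor how many tumors entered a sample or how the tumors were dissected. Untreated knockout colon (10 arrays) gives a reference level, and INSRfl/fl littermates, which carry the floxed gene without its inactivation, gave 8 tumors and 10 AOM+DSS colon samples for a test of genotype.

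Insulin and insulin-like growth factors bind the receptors Insr and Igf1r, which act through the adaptors Irs1 and Irs2 to drive nutrient uptake and growth. In the healthy colon, Wnt ligands from stromal and crypt-base cells keep stem cells dividing, and cells that leave the crypt base turn into absorptive colonocytes, goblet cells and hormone cells. Colon tumors of the AOM and DSS model commonly carry activating changes of the Wnt pathway, whose transcription factors of the Tcf/Lef family then switch on stem cell genes and, as negative feedback, inhibitors of the pathway itself. Values below are deposited log2 expression values. Changes are tumor minus AOM+DSS colon on the log2 scale ± SE from limma, which pools the spread of all 6 groups of the series, with p-values adjusted over all genes by the Benjamini-Hochberg method. A gene is said to have risen or fallen where its adjusted p was below 0.05.

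Colon and tumor arrays separated along the first principal component of the 19 arrays, which held 63.4% of the variance. Of the fixed markers of epithelium and of distal colon, Epcam, Hoxb13, Slc26a3 and Muc2 are shown, and all but Epcam passed as lower in tumors. The values of Slc26a3 and Muc2 are given below. Epcam, an epithelial adhesion molecule, averaged 12.05 ± 0.063 in tumors and 11.96 ± 0.059 in colon (SD, n = 9 and 10), and the distal position gene Hoxb13 8.10 ± 0.18 and 8.45 ± 0.24. The mean of 20 pan-epithelial genes was 10.74 ± 0.093 in tumors and 10.58 ± 0.11 in colon. Smooth muscle differed far more. The mean of 19 smooth muscle genes ran from 8.29 to 9.55 in tumors and from 10.10 to 10.73 in colon, with no overlap. In such bulk samples, fewer cells of a type and less RNA per cell cannot be told apart. Arrays also differed within groups in genes of neighbouring tissues. Genes of squamous epithelium, the lining of the anal canal, had a mean of 5.20 to 8.85 in colon, where replicate 2 was lowest, and of 5.48 to 7.78 in tumors, where replicate 6 was highest. Genes of small-intestinal enterocytes had a mean of 7.21 to 9.69 in colon, highest in replicates 10 and 6, and of 6.35 to 8.09 in tumors. Slc26a3, 4 squamous genes and the Paneth and enterocyte counts are also given without the arrays that stood apart in them.

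Insr itself was measured first. Its values in the 9 tumors were 7.17 (lowest), 7.38 (median) and 8.35 (highest), and in the 10 colon samples 7.52 (lowest), 7.72 (median) and 7.96 (highest). The groups overlapped, and the change of -0.21 ± 0.10 did not pass (adjusted p = 0.0903, exact permutation p = 0.113, two-sided). The library labelled knockout tumor replicate 8, at 8.35, was the highest of all 19 samples and exceeded the fl/fl tumor mean of 8.18, a level that goes against its label. Without tumor replicate 8 the change was -0.31 ± 0.090 (limma, adjusted p = 0.00313). Leaving out the highest tumor value lowers the tumor mean in any case, so this fit is no separate test of Insr. Untreated knockout colon averaged 8.04 ± 0.16 (SD, n = 10).

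The adaptors of the receptor moved in opposite directions. Irs2 had values of 7.52 to 8.81 with a median of 8.08 in colon and 7.01 to 7.56 with a median of 7.36 in tumors, and 8 of 9 tumors lay below the lowest colon sample. It fell to 59.8% of the colon level (-0.74 ± 0.14, adjusted p = 1.11e-05, exact permutation p = 4.33e-05). Irs1 ran from 7.19 to 7.66 with a median of 7.30 in colon and 7.33 to 7.76 with a median of 7.63 in tumors, which overlap, and rose by 0.25 ± 0.090 (adjusted p = 0.0200, exact permutation p = 0.00359). Igf1r, through which IGF1 signals, changed by 0.092 ± 0.095 and did not pass (exact permutation p = 0.297). Of 10 insulin receptor family genes measured, 1 rose and 4 fell, a share near the 42.9% of all genes that passed. With the mean of the smooth muscle genes added to the model as a covariate (the smooth muscle covariate), 0 insulin receptor family genes passed as higher (1 at an unadjusted p under 0.05) and 0 as lower (1 at an unadjusted p under 0.05) in limma, with a list median of 0.016. Under that covariate Insr changed by 0.12 ± 0.21 and Irs2 by -0.17 ± 0.28 (adjusted p = 0.817 and 0.804). With the mean of 20 pan-epithelial genes as a covariate instead, Insr passed as lower (-0.33 ± 0.11, adjusted p = 0.0106) and Irs1 did not pass (0.15 ± 0.098, adjusted p = 0.238). The exact test was run on these 4 genes alone.

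Of the 22180 genes, 9511 passed, or 42.9%, and 4761 of them (21.5%) were higher and 4750 (21.4%) lower in tumors. At least 2-fold rises were found for 382 genes (1.72%) and at least 2-fold falls for 723 (3.26%). Every tumor lay above every colon sample in 7.46% of genes and below in 7.24%. The share of passing genes is the background against which each list below is to be read. The median change of all genes was 0.0020. Some genes belong to more than 1 list. Lists were described by counts of their measured members and their median change. No set test was run on them. When the smooth muscle mean was added to the model as a covariate, 2108 genes passed, of which 2016 were among the 9511. Because that mean differs between the groups without overlap, the covariate also widens the SE. For Notum the change went from 5.07 ± 0.11 to 4.98 ± 0.23. Without the library labelled tumor replicate 8, without tumor replicate 6 and without colon replicates 2, 10 or 6, the counts were 9372, 9448, 9445, 9262 and 9409.

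Pnliprp1, Notum and Wif1 led the rises. Pnliprp1, a relative of pancreatic lipase, ran from 5.11 to 6.12 with a median of 5.47 in colon and from 10.27 to 11.46 with a median of 11.17 in tumors. It rose 43.8-fold (5.45 ± 0.15, adjusted p = 3.92e-37), with all 9 tumors above all 10 colon samples. Notum, a secreted enzyme that removes the lipid from Wnt proteins, ran from 4.78 to 5.95 with a median of 5.54 in colon and from 10.15 to 10.94 with a median of 10.66 in tumors, a 33.6-fold rise (5.07 ± 0.11, adjusted p = 3.68e-42). Tumors were tightly grouped in this gene, with an SD of 0.26. The secreted Wnt antagonist Wif1 rose 33.2-fold (5.05 ± 0.14) and Spock2, a matrix proteoglycan, 32.8-fold (5.04 ± 0.12). Mmp7, the matrix metalloproteinase that activates Paneth cell defensins, rose 32.9-fold (5.04 ± 0.25). The others among the 15 largest rises were the antimicrobial ribonuclease Ang4 4.71 ± 0.62, the transcription factor Prox1 4.71 ± 0.14, the metallothionein Mt4 4.64 ± 0.29, the lipase-related Pnliprp2 4.49 ± 0.31, Erich3 4.46 ± 0.15, the lectin Itln1 4.41 ± 0.45, complement factor I (Cfi 4.19 ± 0.14) and the defensins Defa35 4.36 ± 0.41, Defa24 4.28 ± 0.53 and Defa41 4.12 ± 0.30. Defensins belong to a family of near-identical copies that share probes, so their separate values are uncertain. With the mean of the smooth muscle genes as a covariate, Ang4 and Defa24 did not pass (adjusted p from 0.102 to 0.106).

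**Figure D1:**
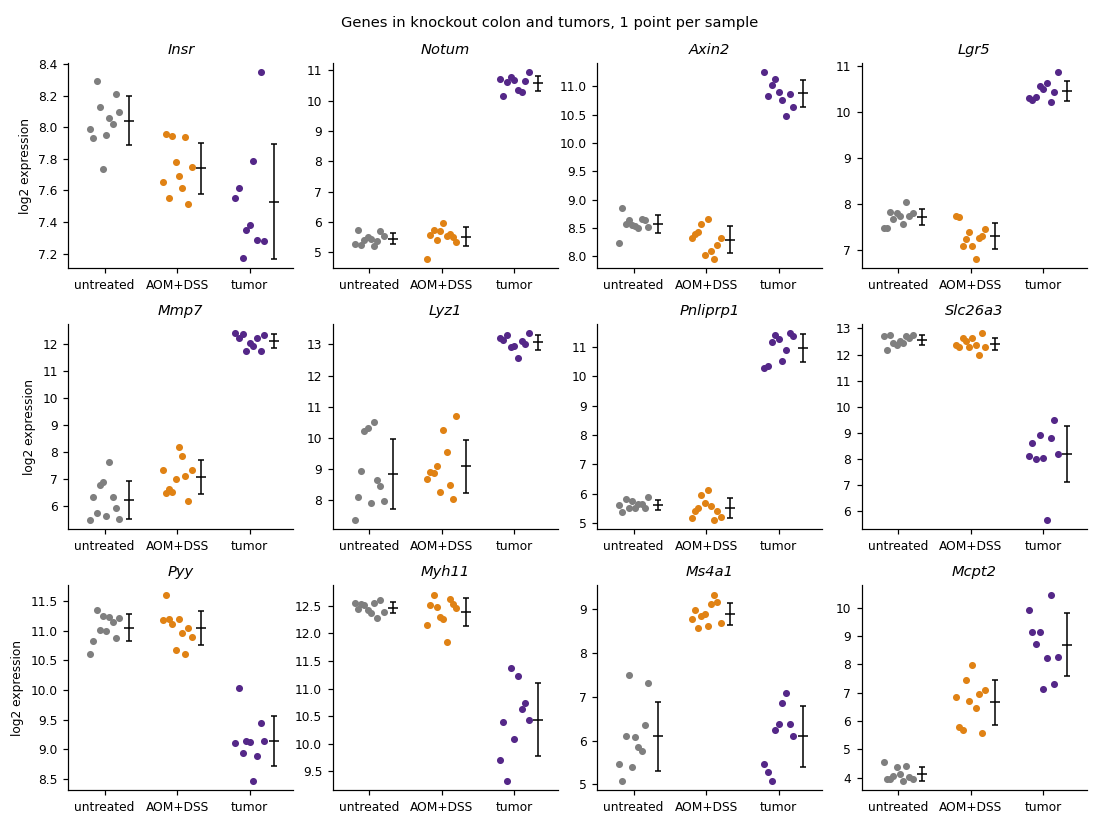
Log2 expression (y axis) of 12 genes in untreated colon, AOM+DSS colon and tumors of knockout mice, 1 point per sample, with mean and SD as black bars (n = 10, 10 and 9). Tumors and AOM+DSS colon do not overlap in Notum, Axin2, Lgr5, Mmp7, Lyz1, Pnliprp1, Slc26a3, Pyy, Myh11 and Ms4a1, and do overlap in Insr and Mcpt2.

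Wnt genes are described by role, starting with the intracellular feedback genes, since they are switched on by the pathway itself. Of 12 measured, 10 rose and 1 fell, with a median of 1.92 against 0.0020 for all genes. Axin2, a scaffold of the complex that destroys beta-catenin, ran from 7.96 to 8.65 with a median of 8.33 in colon and from 10.48 to 11.24 with a median of 10.86 in tumors, and rose 5.96-fold (2.58 ± 0.10, adjusted p = 3.42e-29). No tumor came near the colon range, and untreated colon averaged 8.57. Nkd1, which binds Dishevelled, rose 12.0-fold (3.59 ± 0.12). The ubiquitin ligases that clear Wnt receptors from the cell surface rose as well, at Rnf43 2.21 ± 0.084 and Znrf3 1.75 ± 0.099. So did the Wnt target and transcription factor Sp5 1.70 ± 0.12, Lef1 2.08 ± 0.10, Tnfrsf19 2.12 ± 0.094 and Bambi 0.99 ± 0.085. Nkd2, a relative of Nkd1, fell by 1.06 ± 0.11. After adjustment for the smooth muscle mean, 10 intracellular feedback genes passed as higher and 0 as lower (0 at an unadjusted p under 0.05) in limma, with a list median of 1.94. Of those named here, Nkd2 did not pass there (adjusted p = 0.742).

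Proteins of the Tcf/Lef family bind DNA at the core CTTTGA and, in a longer form, CTTTGATC. RefSeq promoter windows (GRCm38.p6, 250 bases before to 50 after a gene's start) were searched for both motifs on either strand, the longer always containing the shorter. The 250 bases before the start of 3 genes that rose are printed to show windows with and without the motif, 5′ to 3′ on the plus strand, with matches in capitals. Sp5 lies at chr2:70474673-70474922, Spock2 at chr10:60106007-60106256 and Axin2 at chr11:108920099-108920348.
Sp5: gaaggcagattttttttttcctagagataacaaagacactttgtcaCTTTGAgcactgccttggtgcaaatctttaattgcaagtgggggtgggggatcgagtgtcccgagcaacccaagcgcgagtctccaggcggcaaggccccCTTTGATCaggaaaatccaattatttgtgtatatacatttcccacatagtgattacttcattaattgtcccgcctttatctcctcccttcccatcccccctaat
Spock2: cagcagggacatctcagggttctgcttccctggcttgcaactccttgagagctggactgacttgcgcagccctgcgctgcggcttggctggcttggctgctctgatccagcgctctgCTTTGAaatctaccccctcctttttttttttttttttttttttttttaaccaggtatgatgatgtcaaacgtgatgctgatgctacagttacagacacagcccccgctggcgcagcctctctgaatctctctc
Axin2: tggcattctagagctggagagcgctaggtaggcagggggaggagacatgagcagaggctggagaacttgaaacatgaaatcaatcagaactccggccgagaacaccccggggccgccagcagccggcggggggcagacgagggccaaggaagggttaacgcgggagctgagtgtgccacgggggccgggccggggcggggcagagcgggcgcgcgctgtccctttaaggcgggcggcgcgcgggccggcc
Sp5 held the core 204 and 104 bases before its start, the latter inside the longer form, and Spock2 held the core 133 bases before its start. The Axin2 window held neither motif. Of the 15 largest rises, 12 genes had 14 windows in the table, and 6 windows held the core, against 3 of 11 windows of 10 genes among the 15 largest falls. Of 13 windows of 8 intracellular feedback genes, 3 held the core and 2 the longer form, and of 7 windows of 7 secreted Wnt inhibitors 2 held the core. Among all 32851 windows, 16.0% held the core and 0.938% the longer form. These matches describe letters in short windows, not bound sites.

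Secreted Wnt inhibitors did not move as a block. Of 14 measured, 5 rose and 5 fell. Notum and Wif1 were joined by the co-receptor ligand Dkk2 3.88 ± 0.15 and the membrane-bound inhibitor Apcdd1 3.19 ± 0.20. Dkk2 ran from 5.69 to 6.39 with a median of 6.08 in colon and from 9.38 to 10.50 with a median of 9.95 in tumors. Dkk3, named after its values were seen, rose by less than 2-fold (0.49 ± 0.093). Those that fell were soluble relatives of Frizzled receptors, Sfrp2 -1.59 ± 0.18 and Sfrp5 -0.83 ± 0.10 among them, and the BMP and Wnt antagonist Sostdc1 -1.14 ± 0.12. Once smooth muscle was in the model, 5 secreted inhibitor genes passed as higher and 0 as lower (1 at an unadjusted p under 0.05) in limma, with a list median of 0.23. There Sfrp2, Sfrp5 and Sostdc1 did not pass (adjusted p from 0.212 to 0.358).

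Wnt ligands were divided too, with 5 higher and 7 lower of 16 measured. Wnt6 rose 2.53-fold (1.34 ± 0.12), Wnt10a 2.59-fold (1.37 ± 0.13) and Wnt3, a ligand of crypt-base epithelium, 1.78-fold (0.83 ± 0.11). Each of the 3 separated tumors from colon without overlap. Wnt2b, made by stromal cells, fell (-0.94 ± 0.12), as did Wnt4 -1.15 ± 0.14 and Wnt9a -0.49 ± 0.10. Rspo3, the stromal R-spondin that keeps Wnt receptors on stem cells, ran from 8.13 to 8.68 with a median of 8.47 in colon and from 6.37 to 7.77 with a median of 6.68 in tumors, a fall to 32.2% (-1.63 ± 0.13, adjusted p = 5.32e-16). Given the smooth muscle covariate, the change of Rspo3 was -0.75 ± 0.24 (adjusted p = 0.0362). When the smooth muscle mean was added, 4 ligand genes passed as higher and 2 as lower in limma, with a list median of 0.050. Under it Wnt4 and Wnt9a missed the threshold (adjusted p from 0.538 to 0.747).

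Among 18 Wnt receptors, 7 rose and 9 fell. Lgr5, the R-spondin receptor that marks crypt-base stem cells, ran from 6.81 to 7.73 with a median of 7.29 in colon and from 10.21 to 10.86 with a median of 10.44 in tumors, an 8.88-fold rise (3.15 ± 0.13, adjusted p = 6.92e-28). Its relative Lgr6 rose 3.00-fold (1.58 ± 0.11), whereas Lgr4, the form found throughout the crypt, fell (-0.39 ± 0.079). The co-receptor Lrp5 rose (0.62 ± 0.079). Frizzled receptors that fell included Fzd5 -0.82 ± 0.089 and Fzd4 -0.50 ± 0.069, and Fzd10 rose (0.43 ± 0.099). Ror1, a receptor of non-canonical Wnt signals, fell (-1.19 ± 0.090), and its relative Ror2 rose (0.44 ± 0.074). Adjusted for smooth muscle, 2 receptor genes passed as higher and 2 as lower in limma, with a list median of 0.079. That covariate ended the calls of Lgr4, Lrp5, Fzd5, Fzd10 and Ror2 (adjusted p from 0.0592 to 0.538).

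Stem cell and crypt genes rose in 9 of 14 measured cases and fell in 2. Ascl2, the transcription factor of Lgr5+ cells, ran from 6.99 to 7.82 with a median of 7.37 in colon and from 8.90 to 9.75 with a median of 9.07 in tumors (1.75 ± 0.12). The secreted stem cell marker Smoc2 rose 3.41-fold (1.77 ± 0.097), the RNA-binding protein gene Msi1 2.11-fold (1.08 ± 0.098) and Cdca7 1.96-fold (0.97 ± 0.087). Rgmb, a BMP co-receptor of crypts, and the water channel gene Aqp4 fell (-0.72 ± 0.077 and -1.23 ± 0.21). Lrig1, which restrains ErbB receptors in stem cells, changed by -0.18 ± 0.086 and did not pass. Under the smooth muscle covariate, 8 stem and crypt genes passed as higher and 1 as lower in limma, with a list median of 0.76. Among the genes just named, Rgmb did not pass under it (adjusted p = 0.183).

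Transcription factors tied to Wnt signalling rose in 12 of 14 cases, with a median of 1.14. Prox1, a homeobox factor of lymphatic vessels and of colon tumor cells, ran from 6.52 to 7.24 with a median of 6.81 in colon and from 11.27 to 11.72 with a median of 11.52 in tumors, a 26.2-fold rise (4.71 ± 0.14, adjusted p = 5.03e-35). Other markers of lymphatic vessels fell, Lyve1 -1.03 ± 0.13 and Flt4 -0.64 ± 0.087. Sox4 rose 5.52-fold (2.47 ± 0.083), Hes6 3.17-fold (1.66 ± 0.069) and Sox9, the crypt-base factor, 2.22-fold (1.15 ± 0.13). Myc, a driver of growth and ribosome production, ran from 8.96 to 9.46 with a median of 9.10 in colon and from 9.79 to 10.73 with a median of 10.14 in tumors, with no overlap (1.09 ± 0.097). Foxq1 (1.13 ± 0.12) and Ets2 (1.06 ± 0.051) rose too. The member that fell was Tcf7l2, which encodes the main partner of beta-catenin in the intestine (-0.69 ± 0.093). With the smooth muscle covariate, 10 Wnt-linked factor genes passed as higher and 0 as lower (0 at an unadjusted p under 0.05) in limma, with a list median of 1.40. The calls of Lyve1, Flt4 and Tcf7l2 ended under it (adjusted p from 0.517 to 0.798).

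**Figure D2:**
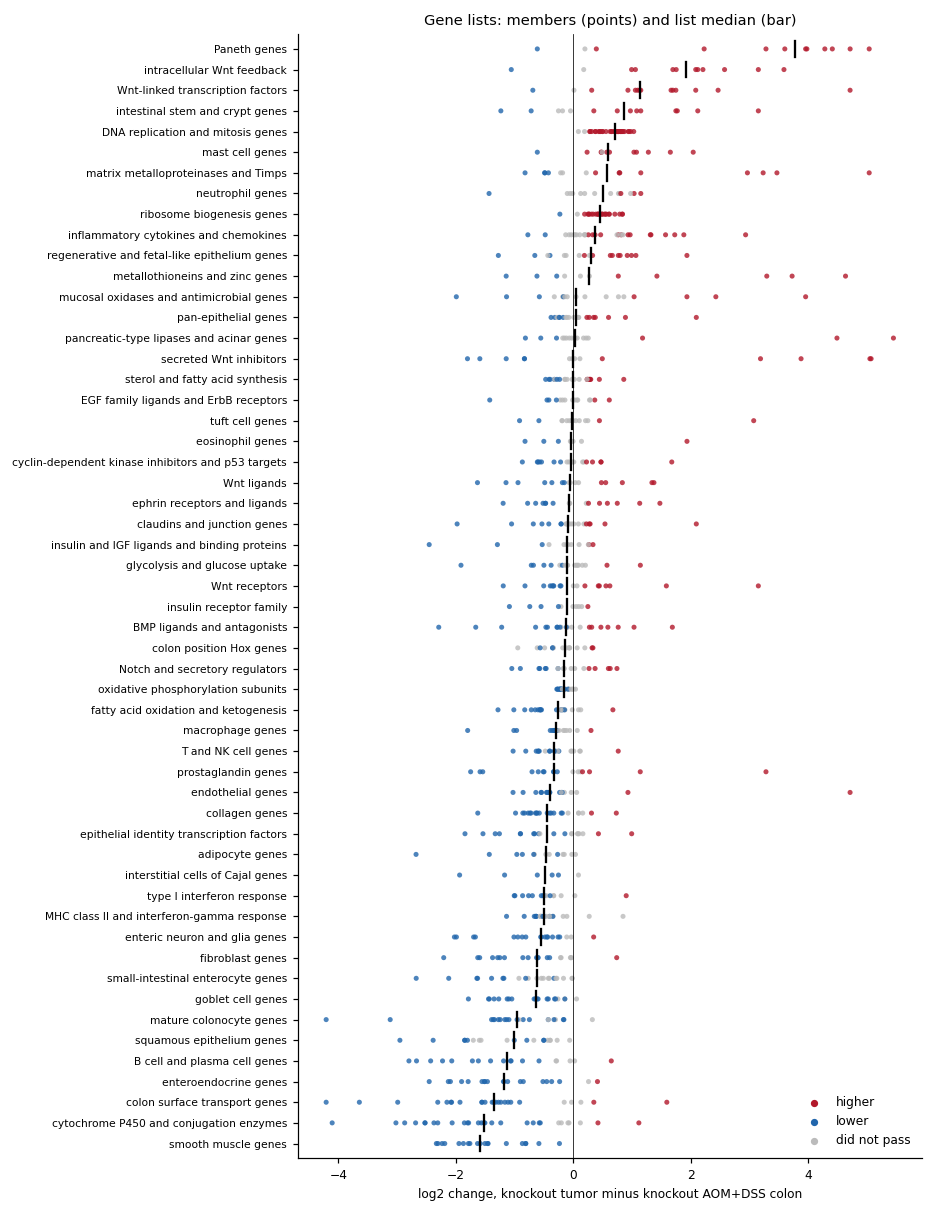
Log2 change between knockout tumors and knockout AOM+DSS colon (x axis) of the measured members of 54 gene lists (rows, ordered by median), 1 point per gene, with the list median as a black bar. Paneth and intracellular Wnt feedback genes have the highest medians (3.78 and 1.92), and smooth muscle and cytochrome P450 lists the lowest (-1.59 and -1.52).

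Paneth cells guard the crypts of the small intestine with antimicrobial proteins and are scarce in the healthy colon. Of 12 Paneth genes measured, 10 rose and 1 fell, and the median was 3.78. Lyz1, the lysozyme of Paneth cells, ran from 8.04 to 10.69 with a median of 8.88 in colon and from 12.56 to 13.35 with a median of 13.11 in tumors, a 15.8-fold rise (3.98 ± 0.34, adjusted p = 7.4e-15). Tumors were alike in Lyz1, with an SD of 0.24, while colon samples spread with an SD of 0.85. Ang4 ran from 5.45 to 8.69 with a median of 6.90 in colon and from 11.31 to 12.31 with a median of 11.71 in tumors (4.71 ± 0.62). It averaged 9.67 in untreated colon. The secreted phospholipase Pla2g2a rose 9.72-fold (3.28 ± 0.25), the protease gene Habp2 12.1-fold (3.60 ± 0.13) and the lectin Reg3g 15.5-fold (3.96 ± 0.66), the last with overlap between the groups. Kit, a receptor also found on mast cells and pacemaker cells of the gut wall, was the member that fell (-0.61 ± 0.11). In the fit with the smooth muscle covariate, 5 Paneth genes passed as higher and 0 as lower (1 at an unadjusted p under 0.05) in limma, with a list median of 2.64. Of those named here, Ang4, Reg3g and Kit did not pass there (adjusted p from 0.0653 to 0.285).

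Enterocytes are the absorptive cells of the small intestine. Of 21 enterocyte genes, 9 fell, among them the peptide transporter Slc15a1 -2.68 ± 0.20, the meprins Mep1a -2.12 ± 0.19 and Mep1b -1.64 ± 0.20, and Apob -1.63 ± 0.25. Colon replicates 10 and 6, which had the highest small-intestinal means, also had the highest Paneth means among colon samples, at 9.33 and 8.76. The lowest Paneth mean of a tumor was 10.40. Without colon replicate 10 and without colon replicate 6, 8 and 9 enterocyte genes fell and 10 and 10 Paneth genes rose, the latter with medians of 3.89 and 3.85. After adjustment for the smooth muscle mean, 4 enterocyte genes passed as lower in limma, with a list median of -0.50.

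The pancreas secretes lipases and other digestive enzymes. Pnliprp2 ran from 6.63 to 7.58 with a median of 6.95 in colon and from 10.59 to 12.33 with a median of 11.39 in tumors, and the lipase cofactor Clps rose 2.26-fold (1.18 ± 0.19). Defining enzymes of pancreatic acinar cells had changes of -0.12 ± 0.13 (Cpa1) and -0.18 ± 0.25 (Ctrb1), both named after their values were seen and neither of which passed. Of 17 members measured, 3 rose and 3 fell. Once smooth muscle was in the model, 3 lipase and acinar genes passed as higher and 0 as lower (1 at an unadjusted p under 0.05) in limma, with a list median of -0.14.

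Zinc-binding proteins and transporters moved apart. Mt4, a metallothionein of stratified epithelium, ran from 4.23 to 6.65 with a median of 4.76 in colon and from 8.52 to 10.41 with a median of 9.61 in tumors. Mt3, known for its brain expression, rose 9.81-fold (3.29 ± 0.15) and the zinc transporter Slc30a2 13.2-fold (3.73 ± 0.15). The zinc importer Slc39a8 rose (1.42 ± 0.12), and Slc39a5 and Slc30a4 fell (-1.14 ± 0.14 and -0.62 ± 0.073). Mt2 rose by 0.77 ± 0.13, and Mt1 changed by -0.15 ± 0.079 without passing. When the smooth muscle mean was added, 5 metallothionein and zinc genes passed as higher and 2 as lower in limma, with a list median of 0.068.

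Matrix metalloproteinases, which cut extracellular matrix, and their Timp inhibitors included 8 higher and 4 lower genes of 16. Mmp7 ran from 6.19 to 8.19 with a median of 7.07 in colon and from 11.74 to 12.40 with a median of 12.22 in tumors. Mmp10 rose 9.40-fold (3.23 ± 0.22), the macrophage elastase Mmp12 11.1-fold (3.47 ± 0.17) and the collagenase Mmp13 7.81-fold (2.97 ± 0.27). Membrane-bound Mmp14 rose by 0.78 ± 0.12. Mmp2, the gelatinase of stromal cells, and the inhibitor Timp4 fell (-0.48 ± 0.10 and -0.82 ± 0.16). Adjusted for smooth muscle, 4 metalloproteinase and Timp genes passed as higher and 0 as lower (0 at an unadjusted p under 0.05) in limma, with a list median of 0.18. Among the genes just named, Mmp14, Mmp2 and Timp4 did not pass under it (adjusted p from 0.155 to 0.888).

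BMP signals, which oppose Wnt and stem cell fate along the crypt, showed 7 rises and 10 falls among 21 genes. The ligand Bmp7 rose 3.22-fold (1.69 ± 0.11), and Bmp2 and Bmp3 fell (-1.22 ± 0.13 and -1.66 ± 0.12). Bmp4 changed by -0.025 ± 0.14 and did not pass. Chrdl1, a secreted BMP antagonist, fell to 20.4% of the colon level (-2.29 ± 0.15), whereas the antagonist Fst rose (1.03 ± 0.17). Id3, a direct BMP target, rose by 0.76 ± 0.088. Under the smooth muscle covariate, 3 BMP genes passed as higher and 2 as lower in limma, with a list median of -0.039. The calls of Bmp2 and Fst ended under it (adjusted p from 0.0546 to 0.168).

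In the EGF family the share of passing genes, 6 of 15, was near the background of 42.9%, and 2 rose, the ligands Tgfa 0.61 ± 0.11 and Btc 0.37 ± 0.11, and 4 fell, the receptors Erbb2 -0.42 ± 0.093 and Erbb3 -0.45 ± 0.089, the ligand Egf -0.29 ± 0.092 and Lrig3 -1.42 ± 0.092. Egfr changed by 0.063 ± 0.068 and did not pass. Of 18 Notch and secretory genes, 5 rose, including Notch1 0.74 ± 0.078, Dll4 0.63 ± 0.089 and the modifier Lfng 0.60 ± 0.076, and 7 fell, including the ligand Dll1 -0.48 ± 0.081. Ephrin receptors sort cells along the crypt. Of 17 ephrin receptor and ligand genes, 6 rose and 7 fell. Efna4 rose 2.78-fold (1.47 ± 0.11), Ephb6 by 1.13 ± 0.14 and the crypt receptor Ephb3 by 0.75 ± 0.10, while the ligand Efnb2 and the receptor Epha7 fell (-0.78 ± 0.076 and -1.20 ± 0.14). Of 12 genes of insulin and IGF ligands and binding proteins, 2 rose and 3 fell, a share near the background of 42.9%. The insulin-like hormone Insl5 of colon endocrine cells fell to 18.2% (-2.45 ± 0.25). The adaptor Grb10, which restrains insulin receptor signalling, fell to 47.0% (-1.09 ± 0.11). With the smooth muscle covariate, 0 EGF family genes passed as higher (0 at an unadjusted p under 0.05) and 1 as lower in limma, with a list median of -0.093. Of the Notch and secretory genes, 1 passed as higher and 2 as lower, with a median of -0.11. Of the ephrin genes, 4 passed as higher and 1 as lower, with a median of -0.032. Of the insulin and IGF ligand and binding protein genes, 0 passed as higher (0 at an unadjusted p under 0.05) and 1 as lower, with a median of 0.090. Of those named here, Tgfa, Btc, Erbb2, Erbb3, Egf, Dll4, Lfng, Dll1, Epha7 and Grb10 did not pass there (adjusted p from 0.144 to 0.940).

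Genes of regenerating and fetal-like epithelium, which mark repair after injury, rose in 10 of 18 cases and fell in 3. The chaperone Clu rose 2.09-fold (1.07 ± 0.13), the keratin Krt7 1.89-fold (0.92 ± 0.075), mesothelin (Msln) by 0.80 ± 0.17 and Plaur, the urokinase receptor, by 0.99 ± 0.14. The surface keratin Krt20 fell (-1.28 ± 0.12), and so did Cd55 (-0.66 ± 0.13). Anxa1 changed by -0.15 ± 0.13 and did not pass. In the fit with the smooth muscle covariate, 4 regenerative genes passed as higher and 1 as lower in limma, with a list median of 0.33. There Msln, Plaur and Cd55 did not pass (adjusted p from 0.587 to 0.882).

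Transporters of the colon surface absorb salt and water. Of 25 measured, 20 fell and 2 rose, with a median of -1.36. Slc26a3, the chloride-bicarbonate exchanger, ran from 12.00 to 12.81 with a median of 12.37 in colon and from 5.68 to 9.49 with a median of 8.19 in tumors, and fell to 5.40% of the colon level (-4.21 ± 0.29, adjusted p = 1.88e-18). Its lowest value, 5.68, belonged to tumor replicate 6, without which the change was -3.89 ± 0.25. The water channel Aqp8 fell to 8.00% (-3.64 ± 0.22) and the carbonic anhydrase Car4 to 12.6% (-2.99 ± 0.25), both with no overlap. The sodium-proton exchanger Slc9a2 fell to 20.2% (-2.31 ± 0.15), whereas its relative Slc9a3 rose 3.02-fold with overlap (1.59 ± 0.32), a change of -0.45 ± 0.60 with the smooth muscle covariate, which did not pass. The butyrate and lactate carriers Slc5a8 (-2.15 ± 0.15) and Slc16a1 (-1.28 ± 0.085), the sulfate transporter Slc26a2 (-2.07 ± 0.13) and the mineralocorticoid receptor Nr3c2 (-1.56 ± 0.11) fell. Untreated knockout colon averaged 12.55 ± 0.20 for Slc26a3 and 11.03 ± 0.10 for Aqp8 (SD, n = 10). After adjustment for the smooth muscle mean, 1 transport gene passed as higher and 13 as lower in limma. Under it Slc9a3 missed the threshold (adjusted p = 0.747).

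Mature colonocyte genes fell in 17 of 21 cases. The brush border genes Cdhr2 (-1.36 ± 0.13), Myo1a (-1.13 ± 0.099) and Muc3 (-1.34 ± 0.13) separated the groups without overlap. Factors of the differentiated epithelium fell as well, with Klf4 to 27.8% (-1.85 ± 0.11), the vitamin D receptor Vdr to 34.4%, the bile acid receptor Nr1h4 to 39.8% (-1.33 ± 0.12) and Hnf4g to 41.8% (-1.26 ± 0.13). The intestinal identity factors Cdx1 and Cdx2 fell by less (-0.90 ± 0.11 and -0.66 ± 0.22, with overlap). Of 20 such factors, 11 fell and 2 rose, Foxa3 (0.99 ± 0.12) and Foxa1 (0.43 ± 0.10). Once smooth muscle was in the model, 7 colonocyte genes passed as lower in limma, with a list median of -0.66. Of the identity factor genes, 1 passed as higher and 7 as lower, with a median of -0.44. That covariate ended the calls of Foxa1 (adjusted p = 0.340).

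Among 20 pan-epithelial genes, 7 rose and 5 fell, and Epcam and Cdh1 changed by 0.093 ± 0.051 and 0.0083 ± 0.045 without passing. The keratin Krt18 rose by 0.89 ± 0.093 and the tight junction gene Cldn4 4.27-fold (2.09 ± 0.13), whereas Cldn1 and Cldn8 fell (-1.98 ± 0.22 and -1.05 ± 0.17). With the pan-epithelial mean as a covariate, 9195 genes passed. When the smooth muscle mean was added, 2 pan-epithelial genes passed as higher and 0 as lower (3 at an unadjusted p under 0.05) in limma, with a list median of 0.11. Among the genes just named, Cldn1 and Cldn8 did not pass under it (adjusted p from 0.0830 to 0.110).

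Goblet cells make the mucus layer. Of their 20 genes, 17 fell, with a median of -0.63. Muc2, the main gel-forming mucin, ran from 13.24 to 13.39 with a median of 13.33 in colon and from 12.50 to 13.31 with a median of 13.01 in tumors, an overlapping fall to 80.1% (-0.32 ± 0.082, adjusted p = 0.000991). The mucin-binding protein Fcgbp fell to 45.8% (-1.13 ± 0.14), the mucus glycosyltransferase B3gnt7 to 29.0% (-1.79 ± 0.14) and Atoh1, the master factor of secretory cells, to 48.4% (-1.05 ± 0.13). Adjusted for smooth muscle, 13 goblet genes passed as lower in limma, with a list median of -1.01.

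Enteroendocrine cells release gut hormones. Of 20 enteroendocrine genes, 18 fell and 1 rose, and the median was -1.19. Pyy, which encodes peptide YY, ran from 10.61 to 11.61 with a median of 11.07 in colon and from 8.47 to 10.03 with a median of 9.12 in tumors, a fall to 26.7% (-1.90 ± 0.15, adjusted p = 2.05e-16). Gcg, the precursor of GLP-1, fell to 22.9% (-2.13 ± 0.17), the granule proteins Chga and Chgb to 35.2% and 23.4%, and Tph1, which makes serotonin, to 28.9% (-1.79 ± 0.16). The progenitor factor Neurog3 fell with overlap (-0.90 ± 0.13). Neurotensin (Nts) was the member that rose (0.41 ± 0.14). Under the smooth muscle covariate, 1 enteroendocrine gene passed as higher and 15 as lower in limma, with a list median of -1.26. Of those named here, Nts did not pass there (adjusted p = 0.928).

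Tuft cells, chemosensory cells of the epithelium, gave no common direction, with 2 rises and 2 falls of 16. When arrays were centred on their medians, 4 tuft genes rose. Avil, an actin-binding protein, ran from 6.29 to 6.71 with a median of 6.33 in colon and from 9.05 to 9.95 with a median of 9.45 in tumors, an 8.41-fold rise (3.07 ± 0.13). Tuft-defining Trpm5 and Pou2f3 changed by -0.025 ± 0.11 and -0.0079 ± 0.12 and did not pass, and Dclk1 fell (-0.92 ± 0.10). With the smooth muscle covariate, 1 tuft gene passed as higher and 0 as lower (3 at an unadjusted p under 0.05) in limma, with a list median of -0.12. There Dclk1 did not pass (adjusted p = 0.0842).

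Enzymes that oxidise and conjugate foreign compounds were among the largest falls. Of 29 measured, 22 fell and 2 rose, with a median of -1.52. Cyp2c55 ran from 10.73 to 12.60 with a median of 12.21 in colon and from 5.58 to 9.37 with a median of 8.11 in tumors, a fall to 5.80% (-4.11 ± 0.38, adjusted p = 9.73e-14). The relatives Cyp2d13 -3.02 ± 0.21, Cyp2c68 -2.87 ± 0.24 and Cyp2d12 -2.69 ± 0.26 fell too. These cytochromes have close relatives whose probes may cross-react. The sulfotransferases Sult1a1 -2.53 ± 0.20 and Sult1d1 -2.37 ± 0.16, the carboxylesterase Ces2a -2.31 ± 0.19 and the monooxygenase Fmo2 -2.84 ± 0.19 fell too. Cyp2b10 rose with overlap (1.12 ± 0.38). In the fit with the smooth muscle covariate, 1 cytochrome and conjugation gene passed as higher and 15 as lower in limma, with a list median of -1.05. Under it Cyp2b10 missed the threshold (adjusted p = 0.735).

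Cell division genes rose by small steps. Of 33 replication and mitosis genes, 31 rose, and the median was 0.70. Mki67, the standard proliferation marker, ran from 9.92 to 10.71 with a median of 10.57 in colon and from 10.74 to 10.96 with a median of 10.83 in tumors, a 1.30-fold rise (0.37 ± 0.11, adjusted p = 0.00341). The replicative helicase subunit Mcm7 rose 1.97-fold (0.98 ± 0.094), Gins1 2.04-fold (1.03 ± 0.12) and the G1 cyclin Ccnd1 1.69-fold (0.75 ± 0.083). Cell cycle inhibitors were mixed: Cdkn1c rose 3.20-fold (1.68 ± 0.11) and Cdkn2a by 0.47 ± 0.073, while Cdkn1a, Cdkn1b and the p53 target Sesn1 fell (-0.33 ± 0.073, -0.58 ± 0.081 and -0.87 ± 0.090). After adjustment for the smooth muscle mean, 2 replication and mitosis genes passed as higher in limma, with a list median of 0.19. That covariate ended the calls of Mki67, Mcm7, Gins1, Cdkn2a, Cdkn1a and Cdkn1b (adjusted p from 0.0657 to 0.929).

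Ribosome biogenesis genes rose in 22 of 24 cases with a median of 0.45. Nop56, of the particle that methylates ribosomal RNA, rose 1.78-fold (0.83 ± 0.076), the RNA polymerase I regulator Mybbp1a 1.79-fold (0.84 ± 0.074) and the polymerase I subunit Polr1a 1.52-fold (0.61 ± 0.066). Utp20 fell (-0.23 ± 0.063). Once smooth muscle was in the model, 1 ribosome gene passed as higher and 0 as lower (1 at an unadjusted p under 0.05) in limma, with a list median of 0.17. Among the genes just named, Nop56, Polr1a and Utp20 did not pass under it (adjusted p from 0.0587 to 0.181).

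Genes of oxidative phosphorylation and of fatty acid oxidation fell more often than they rose. Of 18 glycolysis and glucose uptake genes, 2 rose and 6 fell, a share near the background of 42.9%. Oxidative phosphorylation subunits fell in 15 of 25 cases by small steps, with a median of -0.16, for example Sdha -0.28 ± 0.050 and Ndufs1 -0.27 ± 0.063. After centring the arrays on their medians, 7 of these subunits fell. Fatty acid oxidation genes fell in 14 of 22 cases, led by the carnitine carrier Slc25a20 (-1.01 ± 0.089), Cpt1a (-0.72 ± 0.073) and the acetate-activating Acss2 (-1.28 ± 0.11). Pck1, of glucose synthesis, fell to 26.5% (-1.91 ± 0.22), and the lactate exporter Slc16a3 rose 2.21-fold (1.14 ± 0.12). Hexokinase 1 (Hk1) fell (-0.68 ± 0.056), and Hk2 changed by 0.049 ± 0.12 and did not pass. Sterol and fatty acid synthesis genes had no common direction, with 8 rises and 6 falls of 22 and a median of -0.0018. Fatty acid synthase (Fasn) rose 1.81-fold (0.86 ± 0.097), whereas Acly and the sterol enzyme Hmgcs1 fell (-0.41 ± 0.069 and -0.39 ± 0.080). When the smooth muscle mean was added, 0 oxidative phosphorylation genes passed as lower (4 at an unadjusted p under 0.05) in limma, with a list median of -0.20. Of the fatty acid oxidation genes, 0 passed as higher (3 at an unadjusted p under 0.05) and 4 as lower, with a median of -0.27. The calls of Sdha, Ndufs1, Cpt1a, Slc16a3, Fasn, Acly and Hmgcs1 ended under it (adjusted p from 0.0894 to 0.623).

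Prostaglandin genes fell in 10 of 17 cases and rose in 4, with a median of -0.33. Those named here act on the making and the clearing side. Ptgs2, the inducible cyclooxygenase, ran from 8.10 to 9.58 with a median of 8.73 in colon and from 8.91 to 11.27 with a median of 9.72 in tumors and rose 2.20-fold with overlap (1.14 ± 0.26, adjusted p = 0.000180). Hpgd, which degrades prostaglandins, fell to 29.8% (-1.75 ± 0.14), and Slco2a1, which carries them into cells, to 33.2% (-1.59 ± 0.099), both without overlap. The synthase Ptges changed by 0.12 ± 0.080 and did not pass. Adjusted for smooth muscle, 1 prostaglandin gene passed as higher and 3 as lower in limma, with a list median of -0.17. Of those named here, Ptgs2 did not pass there (adjusted p = 0.364).

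Muscle, nerve and connective tissue genes were lower in tumors. All 19 smooth muscle genes measured fell, 18 of them without overlap, and the median was -1.59. Myh11, smooth muscle myosin, ran from 11.85 to 12.70 with a median of 12.47 in colon and from 9.33 to 11.38 with a median of 10.43 in tumors, a fall to 25.9% (-1.95 ± 0.16). Desmin (Des) fell to 29.5% (-1.76 ± 0.16) and Acta2 to 57.0% (-0.81 ± 0.070). Enteric neuron and glia genes fell in 16 of 19 cases, for example the synaptic gene Snap25 (-1.99 ± 0.15), Stmn2 (-2.03 ± 0.14) and the neuropeptide Vip (-1.70 ± 0.16). The receptor gene Ret rose (0.35 ± 0.13), but did not pass without colon replicate 2 (0.31 ± 0.13, adjusted p = 0.0588). Without colon replicate 10 its adjusted p was 0.0511. Fibroblast genes fell in 14 of 20 and collagens in 17 of 23 cases. Lumican (Lum) fell to 21.7% (-2.21 ± 0.20), Col14a1 to 32.4% (-1.63 ± 0.14) and Col3a1 to 58.6% (-0.77 ± 0.11). Foxl1, a factor of the cells that underlie the crypts, rose (0.74 ± 0.097), as did Col12a1 (0.73 ± 0.12). Of 19 endothelial genes, 13 fell, Pecam1 by 0.55 ± 0.095. Under the smooth muscle covariate, 0 neuron and glia genes passed as higher (0 at an unadjusted p under 0.05) and 5 as lower in limma, with a list median of -0.26. Of the fibroblast genes, 0 passed as higher (0 at an unadjusted p under 0.05) and 0 as lower (2 at an unadjusted p under 0.05), with a median of -0.086. Of the collagen genes, 0 passed as higher (1 at an unadjusted p under 0.05) and 2 as lower, with a median of -0.15. Of the endothelial genes, 1 passed as higher and 0 as lower (2 at an unadjusted p under 0.05), with a median of -0.11. There Ret, Lum, Col14a1, Col3a1, Foxl1, Col12a1 and Pecam1 did not pass (adjusted p from 0.184 to 0.615).

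**Figure D3:**
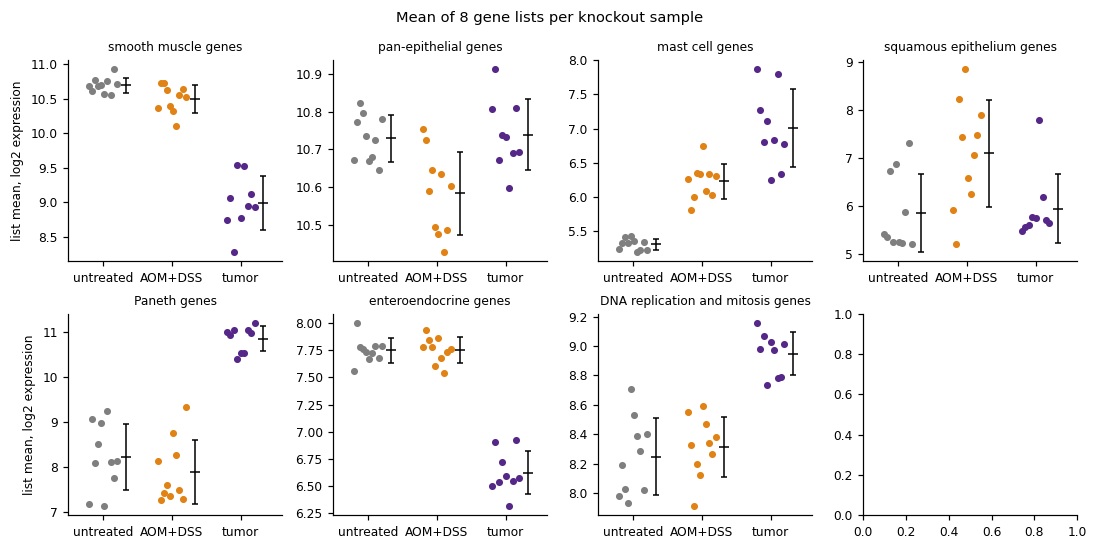
Mean log2 expression (y axis) of the smooth muscle, pan-epithelial, mast cell, squamous, Paneth, enteroendocrine and replication gene lists in each knockout sample. Samples are untreated colon, AOM+DSS colon and tumors, with group mean and SD as black bars (n = 10, 10 and 9). Tumors lie below both colon groups in smooth muscle and enteroendocrine genes and above both in Paneth and replication genes.

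B cell and plasma cell genes fell in 13 of 18 cases, with a median of -1.13. Ms4a1, which encodes CD20, ran from 8.57 to 9.34 with a median of 8.87 in colon and from 5.08 to 7.10 with a median of 6.25 in tumors, a fall to 14.4% (-2.80 ± 0.36, adjusted p = 1.51e-09). The B cell receptor chain Cd79a fell to 23.8% (-2.07 ± 0.30) and the complement receptor Cr2 to 15.7% (-2.67 ± 0.32). Ms4a1 averaged 6.09 ± 0.79 in untreated colon and 6.10 ± 0.69 in tumors (SD, n = 10 and 9). The list mean was 7.04 ± 0.24 in tumors, 8.25 ± 0.18 in AOM+DSS colon and 7.08 ± 0.28 in untreated colon. Sdc1, a marker of plasma cells and of epithelium, rose (0.65 ± 0.066). With the smooth muscle covariate, 1 B cell gene passed as higher and 9 as lower in limma, with a list median of -1.20. Under it Cd79a missed the threshold (adjusted p = 0.112).

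T and NK cell genes fell in 11 of 19 cases, among them Cd4 -1.03 ± 0.16, Cd3e -0.58 ± 0.17 and Klrd1 -0.81 ± 0.10, and Zap70 rose (0.76 ± 0.097). Macrophage genes fell in 9 of 16 cases. Among them were the scavenger receptors of resident macrophages, Cd163 to 28.7% (-1.80 ± 0.11) and Mrc1 to 51.2% (-0.97 ± 0.12), against 79.1% for Csf1r (-0.34 ± 0.088). MHC class II genes fell with their activator Ciita (-0.84 ± 0.15), including H2-Aa -0.55 ± 0.16 and H2-Eb1 -0.50 ± 0.13, all with overlap. Of 20 genes of that list 11 fell, and of 15 type I interferon response genes 9 fell, for example Ifit1 -1.01 ± 0.26. Usp18 rose (0.90 ± 0.21). In the fit with the smooth muscle covariate, 0 T and NK genes passed as higher (0 at an unadjusted p under 0.05) and 3 as lower in limma, with a list median of -0.58. Of the macrophage genes, 0 passed as higher (0 at an unadjusted p under 0.05) and 2 as lower, with a median of -0.42. Of the MHC genes, 0 passed as lower (4 at an unadjusted p under 0.05), with a median of -0.68. Of the type I interferon genes, 0 passed as higher (0 at an unadjusted p under 0.05) and 1 as lower, with a median of -0.82. That covariate ended the calls of Cd3e, Zap70, Mrc1, Csf1r, Ciita, H2-Aa, H2-Eb1, Ifit1 and Usp18 (adjusted p from 0.0616 to 0.842).

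Mast cell genes rose in 10 of 12 cases and fell in 1. The receptor Kit, also found on mast cells, fell, as given with the Paneth genes. Mcpt2, a mucosal mast cell protease, ran from 5.60 to 7.98 with a median of 6.78 in colon and from 7.12 to 10.47 with a median of 8.72 in tumors, and the groups overlapped in spite of a 4.12-fold rise (2.04 ± 0.36, adjusted p = 3.16e-06). It averaged 4.14 in untreated colon. Mcpt1 rose 3.14-fold (1.65 ± 0.39) and Cpa3 2.42-fold (1.28 ± 0.26). After adjustment for the smooth muscle mean, 1 mast cell gene passed as higher and 0 as lower (1 at an unadjusted p under 0.05) in limma, with a list median of 0.45. Among the genes just named, Mcpt2, Mcpt1 and Cpa3 did not pass under it (adjusted p from 0.123 to 0.900).

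Cytokines and chemokines rose in 14 of 29 cases and fell in 2. Il23a, a subunit of interleukin 23, ran from 4.88 to 5.33 with a median of 5.12 in colon and from 7.44 to 8.56 with a median of 7.97 in tumors, a 7.64-fold rise without overlap (2.93 ± 0.11, adjusted p = 1.75e-30). Il1a rose 3.69-fold (1.88 ± 0.23), Tnf 2.48-fold (1.31 ± 0.15) and the neutrophil attractants Cxcl1 and Cxcl2 2.50-fold and 3.31-fold (1.32 ± 0.15 and 1.73 ± 0.24). Il11, a stromal cytokine of colon tumors, rose with overlap (1.57 ± 0.26). Il6 changed by 0.19 ± 0.21 and did not pass. Il18, made by the epithelium, and the T cell attractant Ccl5 fell (-0.48 ± 0.13 and -0.77 ± 0.21). Of 14 neutrophil genes, 3 rose, a share near the 21.5% of all genes that rose, and 1 fell, with a median of 0.50. Without the library labelled tumor replicate 8 the number of neutrophil genes that rose was 7. Lcn2, an iron-binding protein of inflamed epithelium and neutrophils, rose 5.38-fold without overlap (2.43 ± 0.23). Of 8 eosinophil genes, 1 rose and 3 fell, with a median of -0.042, beside the 42.9% of all genes that passed. Alox15 was the member that rose, 3.83-fold (1.94 ± 0.21). The defining granule genes Epx and Prg2 changed by 0.14 ± 0.091 and -0.0046 ± 0.073 and did not pass. Once smooth muscle was in the model, 1 cytokine and chemokine gene passed as higher and 1 as lower in limma, with a list median of 0.072. Of the neutrophil genes, 0 passed as higher (0 at an unadjusted p under 0.05) and 1 as lower, with a median of -0.58. The calls of Il1a, Tnf, Cxcl1, Cxcl2, Il11, Il18 and Lcn2 ended under it (adjusted p from 0.0751 to 0.529).

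**Figure D4:**
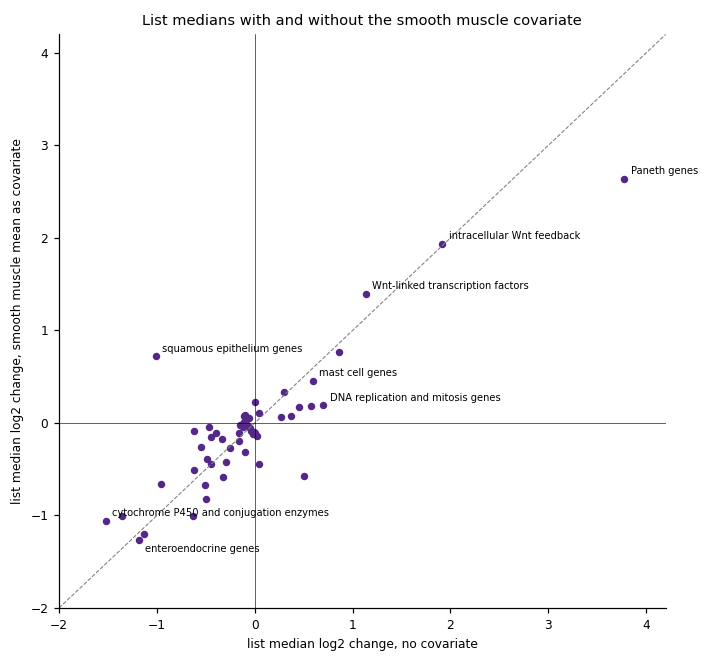
Median log2 change of the gene lists other than smooth muscle, without (x axis) and with (y axis) the smooth muscle mean as a covariate. The dashed line marks equal values. The Wnt feedback median was 1.94 with and 1.92 without it, and the squamous median 0.72 with and -1.01 without it.

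Krt6a, Ppbp, Psca, Tmprss11a, Tmprss11d and Tmprss11g were among the 15 largest falls, and in none of these 6 genes did the groups separate. Krt6a, a keratin of stratified epithelium, ran from 4.22 to 11.30 with a median of 10.49 in colon and from 5.01 to 11.04 with a median of 6.11 in tumors (-2.95 ± 0.88, adjusted p = 0.00439). Colon replicate 2, at 4.22, lay below the tumor median. The serine proteases Tmprss11a -3.20 ± 0.71, Tmprss11d -3.14 ± 0.74 and Tmprss11g -3.12 ± 0.72, the platelet chemokine Ppbp -3.04 ± 0.92 and the stem cell antigen Psca -2.73 ± 0.94 also fell with overlap. Untreated knockout colon averaged 6.12 for Krt6a and 6.80 for Ppbp, and tumors 6.84 and 8.58. Without colon replicate 2 the changes were Krt6a -3.57 ± 0.83, Ppbp -3.74 ± 0.86 and Tmprss11g -3.59 ± 0.68, and without tumor replicate 6 that of Tmprss11a was -3.65 ± 0.70. Of 19 squamous genes, 9 fell. The count was 13 without tumor replicate 6 or colon replicate 2, and 11 without colon replicate 6. It was 6 without the library labelled tumor replicate 8 and 5 without colon replicate 10. With the pan-epithelial mean as a covariate, 0 squamous genes passed as lower (0 at an unadjusted p under 0.05) in limma, with a list median of -0.47. Given the smooth muscle covariate, Krt6a, Ppbp, Psca and Tmprss11a changed sign, for example Krt6a to 0.60 ± 1.78 and Ppbp to 0.52 ± 1.88. When the smooth muscle mean was added, 0 squamous genes passed as lower (0 at an unadjusted p under 0.05) in limma, with a list median of 0.72. Of those named here, Krt6a, Ppbp, Psca, Tmprss11a, Tmprss11d and Tmprss11g did not pass there (adjusted p from 0.703 to 0.933).

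The last comparison asked whether the tumor change depended on genotype, by the difference between the knockout change and the change of fl/fl tumors against fl/fl AOM+DSS colon, which share no arrays. In fl/fl mice 9143 genes passed (41.2%). No gene passed the test of the difference (limma, 0 of 22180, or 0.0%), with 1470 genes at an unadjusted p under 0.05 and a smallest adjusted p of 0.186. For Notum the difference was -0.031 ± 0.15, for Lgr5 -0.22 ± 0.19, for Slc26a3 -0.33 ± 0.42 and for Insr 0.19 ± 0.15. For Lyz1 it was 0.41 ± 0.49 and for Ang4 0.39 ± 0.89, with wider SE than in the Wnt genes. In the 37 arrays of AOM+DSS mice fitted alone Ica1l passed (adjusted p = 0.0208), and without tumor replicate 6 the predicted gene Gm17250, named here after its values were seen, passed (adjusted p = 0.0117). The 5 genes with the smallest p were Ica1l, Il5ra, Prrg1, Apoe and Dusp22. Ica1l changed by -0.45 ± 0.082 in knockout and 0.11 ± 0.085 in fl/fl mice. Il5ra, the interleukin 5 receptor of eosinophils and B cells, changed by -0.82 ± 0.15 and 0.16 ± 0.15. Prrg1 changed by -0.29 ± 0.10 and 0.37 ± 0.10, the lipid carrier Apoe by -0.13 ± 0.069 and 0.32 ± 0.072, and the phosphatase gene Dusp22 by -0.0098 ± 0.10 and 0.64 ± 0.11. Their adjusted p-values ran from 0.186 to 0.220.

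**Figure D5:**
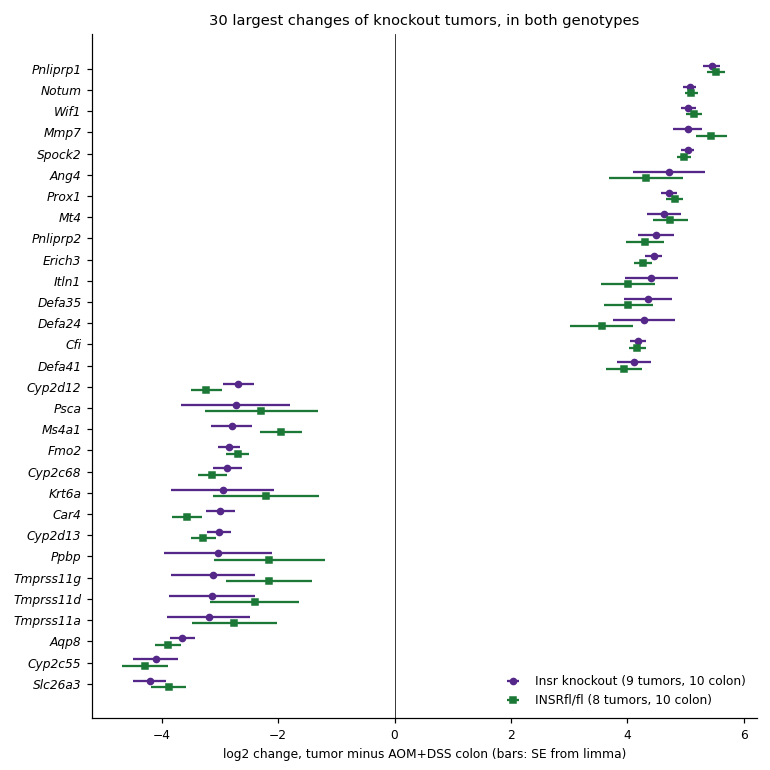
Log2 change from AOM+DSS colon to tumor (x axis, with SE from limma) of the 15 largest rises and 15 largest falls of knockout tumors, in knockout (circles) and fl/fl mice (squares). The genes were chosen by their knockout change. None of them passed the test of the difference between genotypes.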

How the data were processed

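RNA of 57 mouse colon samples was measured on Affymetrix arrays. The authors deposited log2 expression values per probe set. The submitters' processing notes name RMA as the tool, with no version, and no scanner files were used here. RMA sets all arrays to a shared distribution of probe intensities, so a shift common to most genes would not be seen, and low values are compressed. Array medians were 6.51 to 6.68. No pair of arrays was identical (highest correlation 0.994). Arrays have no read depth, and precision is limited by their number.

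Of 41345 probe sets, 23521 were paired with 1 gene symbol, 1814 with several and 16010 with none in the annotation used here. Probe sets of several genes were left out, and where probe sets competed for a gene (1082 genes) the brightest was taken, which left 22180 genes. The 6 groups were taken from the sample titles and fitted in 1 model with limma 3.58.1 (R 4.3.3), with 51 residual degrees of freedom and Benjamini-Hochberg adjustment over all genes at a threshold of 0.05. The genotype question was tested as an interaction contrast. Insr, Igf1r, Irs1 and Irs2 also had an exact permutation test. On simulated data of 22180 genes for the tumor comparison, the fit recovered 88% of 100 genes changed by 0.5 and 96% of 100 changed by 1 on the log2 scale, with 4 false calls. The simulation drew independent normal noise of equal spread in all groups and changed 200 genes. In the data 42.9% of genes passed and spreads differed between groups, so these rates do not measure recovery there. Other tools were Python 3.11.15, numpy 2.4.6, scipy 1.17.1, pandas 2.3.3 and matplotlib 3.10.9.

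The samples, gene lists and tests were chosen with earlier results of these data known. Genes named are drawn from Insr, Igf1r, Irs1 and Irs2, the 15 largest rises and falls and the defining members of each list (its first 3). Further sources were up to 6 more members ranked by adjusted p, up to 3 against the list's direction and the 5 smallest p-values of the genotype test. A panel of marker genes was also fixed, of which only a part is named. Predicted models are counted and not named, with 1 exception stated where it occurs. Alternatives changed the scaling, normalization, filter, probe set rule, variance model, arrays fitted and array weights, added list means as covariates, or left out 1 array. The leave-outs of colon replicates 2, 6 and 10 and of tumor replicate 6 were added after seeing the data. Symbols were matched to promoter windows of RefSeq (GRCm38.p6). The labels call samples biological replicates but name no animal per sample, so the p-values measure the spread between these samples.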

Additional observations from a re-analysis of the deposited data

Results flagged for a closer look

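Within the knockout groups, 178 sets of values (single genes and list means) were searched for a sample far from the others of its group, and 19 were found. By chance, about 1 in 20 sets is flagged.

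Among single genes, colon replicate 2 was the lowest of its group in Krt6a at 4.22 (the other 9 lay between 8.67 and 11.30), in Ppbp at 5.29 (11.14 to 12.95) and in Tmprss11g at 4.68 (7.98 to 10.66). Tumor replicate 6 was the lowest tumor in Slc26a3 at 5.68 (8.00 to 9.49) and in Car4 at 6.51 (8.10 to 9.68), and the highest in Tmprss11a at 8.57 (4.04 to 5.43). Colon replicate 6 was the highest of its group in Wif1 at 8.35 (6.70 to 7.51) and in Spock2 at 7.85 (6.86 to 7.29). Colon replicate 1 was lowest in Notum at 4.78 (5.34 to 5.95), and colon replicate 5 highest in Mt4 at 6.65 (4.23 to 5.44).

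Among list means, tumor replicate 6 was highest in squamous genes at 7.78 (the other 8 lay between 5.48 and 6.18) and lowest in goblet cell genes at 9.31 (9.86 to 10.40). Colon replicate 2 was lowest in cytokine and chemokine genes at 6.18 (6.68 to 7.18) and in regenerative epithelium genes at 9.07 (9.45 to 9.82). Tumor replicate 3 was lowest in regenerative epithelium genes at 9.51 (9.76 to 10.00) and in prostaglandin genes at 7.49 (7.62 to 7.73). Tumor replicate 1 was highest in Wnt-linked transcription factors at 9.70 (9.28 to 9.48) and in tuft cell genes at 6.22 (6.09 to 6.15). Colon replicate 7 was lowest in intracellular Wnt feedback genes at 7.94 (8.05 to 8.17). What sets these samples apart was not tested.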

How the results depend on the processing

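The number of genes past the threshold, 9511, stayed between 8911 (squamous mean as covariate) and 9881 (array weights) under every alternative but the smooth muscle covariate, where it was 2108 (1001 higher and 1107 lower), with 4727 genes at an unadjusted p under 0.05. Under that covariate 5 named genes that had passed without it changed sign and did not pass, Krt6a (0.60), Ppbp (0.52), Psca (1.60), Tmprss11a (0.33) and Slc9a3 (-0.45), 6 that had not passed changed sign too, and 92 other named genes kept their direction but no longer passed. The cause was not tested. Leaving out tumor replicate 8, tumor replicate 6 or colon replicate 2, 6 or 10 gave 9262 to 9448 genes. The other arrays were not left out in turn. Centring arrays on their medians gave 9704 genes (5678 higher and 4026 lower).

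With the replicate number as a block, 9373 genes passed, 8907 of them shared with the fit without it. Of 9 same-numbered pairs, 3 had deviations correlated above 0.1 (range -0.23 to 0.29) and 2 correlated best with their own number. Tumor and colon of 1 mouse need not share deviations, so these values cannot show whether the numbers mark animals. The test of genotype gave 0 genes except for 1 in the 37 arrays of AOM+DSS mice and 1 without tumor replicate 6, and its smallest adjusted p ran from 0.0117 to 0.238. The pan-epithelial covariate ended the call of 7 named genes and the squamous covariate that of 2, Ppbp and Psca. Without colon replicate 2 or tumor replicate 6, Hoxb13 did not pass (adjusted p = 0.0611 in both).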
